A study of Mus musculus with 16 samples.

Results

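The genes described here are the guanylin hormones, their receptor and the main ion transporters of the small intestinal epithelium, 10 genes taken by symbol from the 48440 genes listed for each intestinal segment. They are Guca2a, Guca2b, Gucy2c, Cftr, Slc26a3, Slc26a6, Slc9a3, Slc4a4, Kcnq1 and Kcne3, and each symbol matched 1 gene. Their RNA was measured in GFP+ cells sorted from the duodenum, jejunum and ileum of obese mice that had undergone vertical sleeve gastrectomy (VSG), an operation that removes 80% of the stomach, or a sham operation. All mice, VSG-treated and sham-treated, were Lgr5eGFP mice, which make green fluorescent protein from the stem cell gene Lgr5. All had eaten a diet with 60% of its energy from fat for 16 weeks before surgery, and tissue was taken 4 weeks after surgery, 15 minutes after an oral liquid meal given following an overnight fast. The study describes these mice as female. No age was stated for them beyond a general range of 8 to 16 weeks for its studies. That range cannot be their age at collection, which came 4 weeks after surgery and after 16 weeks of diet. The sort removed cells positive for CD45 and CD31 and dead or dying cells. It kept every cell with GFP, which in this model includes progenitors as well as stem cells. RNA-Seq gave 16 libraries from 7 mice, with 4 VSG and 2 sham libraries from the duodenum and as many from the jejunum of the same 6 mice, and 2 VSG and 2 sham libraries from the ileum. A replicate number is 1 mouse within its surgery group in every segment.

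Guanylin (Guca2a) and uroguanylin (Guca2b) are peptides that the epithelium releases into the gut lumen. Both bind guanylate cyclase C (Gucy2c) on the apical membrane of epithelial cells, and the cyclic GMP that the receptor makes opens the chloride and bicarbonate channel Cftr and inhibits the sodium-proton exchanger Slc9a3, so that salt and water move into the lumen. Slc26a3 and Slc26a6 exchange luminal chloride for bicarbonate, Slc4a4 brings sodium and bicarbonate in across the basolateral membrane, and the basolateral potassium channel made of Kcnq1 and Kcne3 keeps the cell voltage that drives chloride out.

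The hormone is cut from the end of each precursor, and the end of the coding sequence is shown here because it is the part that the receptor recognises and the part in which both genes can be compared directly. The last 15 codons before the stop codon (GENCODE M21, GRCm38) follow, 5′ to 3′, with the codons for cysteine in capitals. The stretch of Guca2a lies in the coding part of its last exon at chr4:119639228-119639272 on the plus strand, and that of Guca2b in its last coding exon at chr4:119656795-119656839 on the minus strand.
Guca2a: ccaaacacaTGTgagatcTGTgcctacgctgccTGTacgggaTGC
Guca2b: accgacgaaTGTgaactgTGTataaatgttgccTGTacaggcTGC
The stretches shared 29 of 45 bases. All 4 cysteine codons, numbers 4, 7, 12 and 15 of the stretch, stood at the same place in both genes, and these are the cysteines of the disulphide bonds of the hormones.

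The hormone genes are neighbours on chromosome 4. Guca2a (ENSMUSG00000023247, chr4:119637704-119639471, plus strand) and Guca2b (ENSMUSG00000032978, chr4:119656607-119658954, minus strand) are 17135 bases apart and transcribed towards each other. Their upstream sequences (RefSeq, GRCm38.p6) are shown because the hormones, though neighbours, had different levels along the intestine. The windows held 250 bases before the RefSeq start, of which the 28 and 9 bases nearest to it lie inside the GENCODE gene models and are left out of the printed text. Capitals mark matches to the GATA motif AGATAA or to the HNF1 motif GTTAAT, each read on both strands.
Guca2a, chr4:119637482-119637703, plus strand: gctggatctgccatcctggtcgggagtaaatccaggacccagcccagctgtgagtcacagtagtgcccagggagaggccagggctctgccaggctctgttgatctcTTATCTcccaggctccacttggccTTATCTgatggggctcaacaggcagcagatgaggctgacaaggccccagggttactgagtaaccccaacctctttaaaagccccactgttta
Guca2b, chr4:119658955-119659195, minus strand: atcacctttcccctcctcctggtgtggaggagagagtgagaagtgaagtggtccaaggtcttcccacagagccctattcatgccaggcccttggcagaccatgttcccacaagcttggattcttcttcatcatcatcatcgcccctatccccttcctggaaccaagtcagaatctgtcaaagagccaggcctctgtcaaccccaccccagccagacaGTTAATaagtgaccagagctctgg
Guca2a had 2 matches to the GATA motif, at -144 to -139 and at -120 to -115 from the start, both on the opposite strand. Guca2b had 1 match to the HNF1 motif, at -33 to -28. Among 32536 distinct upstream windows of the same length, 9.97% held the GATA motif and 6.47% the HNF1 motif. The searches for TTTAT, the core of the CDX motif, and CAAAGTCCA, an HNF4 motif, found no match in either window, and these letters were present in 37.2% and 0.387% of all windows. Upstream windows were found for 8 of the 10 genes, and among the other 6 of these Slc26a3 held HNF1 matches at -94 to -89 and -84 to -79 and a CDX match at -29 to -25, and Slc26a6 a CDX match at -75 to -71.

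Implied depth was 10.9 to 63.6 M reads per library. A value of 1 read corresponded to 0.586 to 2.07 normalized counts, so all members other than Kcne3 were far above the counting limit in every library. The sort was checked with lists of cell type markers. Summed stem cell markers (10 genes) ranged from 217 to 2713 CPM (counts per 1000000 normalized counts of the same library). By segment the sums were 1346 to 2713 CPM in the duodenum, 254 to 1567 in the jejunum and 217 to 636 in the ileum. Lgr5 itself was listed at 0 in the jejunal and ileal libraries of sham replicate 1. The 16 markers of enterocytes, the absorptive cells, were above 0 in all libraries and summed to 8588 to 56953 CPM. The sorted cells thus carried much RNA of differentiated enterocytes. By segment the enterocyte sums were 8588 to 27730 CPM in the duodenum, 18880 to 56953 in the jejunum and 20965 to 38805 in the ileum. Goblet cell markers other than Guca2a summed to 2103 to 6598, 2291 to 11709 and 3259 to 8971 CPM in these segments. The 12 immune markers summed to as much as 1226, 1803 and 2747 CPM in a duodenal, jejunal and ileal library, although 4, 4 and 8 of them were listed at 0 in all libraries of the segment, and Ptprc, which encodes CD45, was at most 32.7 CPM. In the duodenum the listed gene Cd74 alone averaged 661 CPM, against 7.30 for Ptprc. The sums of 12 markers of stroma and endothelium were at most 57.3 CPM. Jejunal libraries of 2 mice stood apart. Sham replicate 1 had the highest enterocyte sum and the lowest jejunal stem cell sum, 254 CPM against 984 to 1567 in the other 5. VSG replicate 1 had 196951 normalized counts of the ileal bile acid binding protein gene Fabp6, which ranged from 15.8 to 313 in the other jejunal libraries. In bulk samples, fewer cells of a type and less RNA per cell cannot be told apart.

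Guca2a had its highest levels in the ileum, and Guca2b was higher in the jejunum than in the duodenum. For levels across segments each library was scaled to CPM in this way, without a test, since the authors normalized each segment on its own. Duodenal Guca2a had a median of 40.0 CPM (28.8 to 58.8, n = 6), jejunal Guca2a 258 (137 to 873, n = 6) and ileal Guca2a 643 (557 to 700, n = 4). The jejunal level exceeded the duodenal level in 6 of 6 mice, by a median of 7.02-fold, and the duodenal and jejunal ranges did not overlap. The ileal level exceeded the jejunal level by 4.22-fold and the duodenal level by 11.7-fold at the median, in 3 of 3 mice each. The jejunal and ileal ranges met only through the jejunal library of VSG replicate 1, which had the 873 CPM. Leaving out any 1 mouse kept the median jejunal difference between 2.70 and 2.92 on the log2 scale. In the deposited values without that scaling, the ileum was above the jejunum and the duodenum in 3 of 3 mice as well, by median log2 differences of 1.44 and 2.52.

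Duodenal Guca2b had a median of 251 CPM (124 to 441), jejunal Guca2b 502 (407 to 1180) and ileal Guca2b 545 (422 to 741). The jejunum exceeded the duodenum in 6 of 6 mice by a median of 2.54-fold, and the ileum exceeded the duodenum in 3 of 3 mice by 2.60-fold. Jejunal and ileal levels overlapped and their median difference was 0.05 on the log2 scale. Without the scaling, the ileum exceeded the duodenum in only 2 of 3 mice (median log2 difference 0.29). It was below the jejunum in 3 of 3 (-0.57). The place of the ileum in the order of Guca2b thus depends on the scaling, and the unscaled values carry the lower ileal totals. The jejunum stayed above the duodenum in 6 of 6 mice without the scaling (1.01). The receptor gene Gucy2c was close to level, with medians of 276 (232 to 314), 306 (288 to 392.4) and 338 (310 to 365) CPM. Its jejunal value was above the duodenal value in 6 of 6 mice, by a median of only 1.15-fold, and this order reversed in the deposited values without that scaling (log2 difference -0.29), as did that of ileum and duodenum (-0.93).

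**Figure D1:**
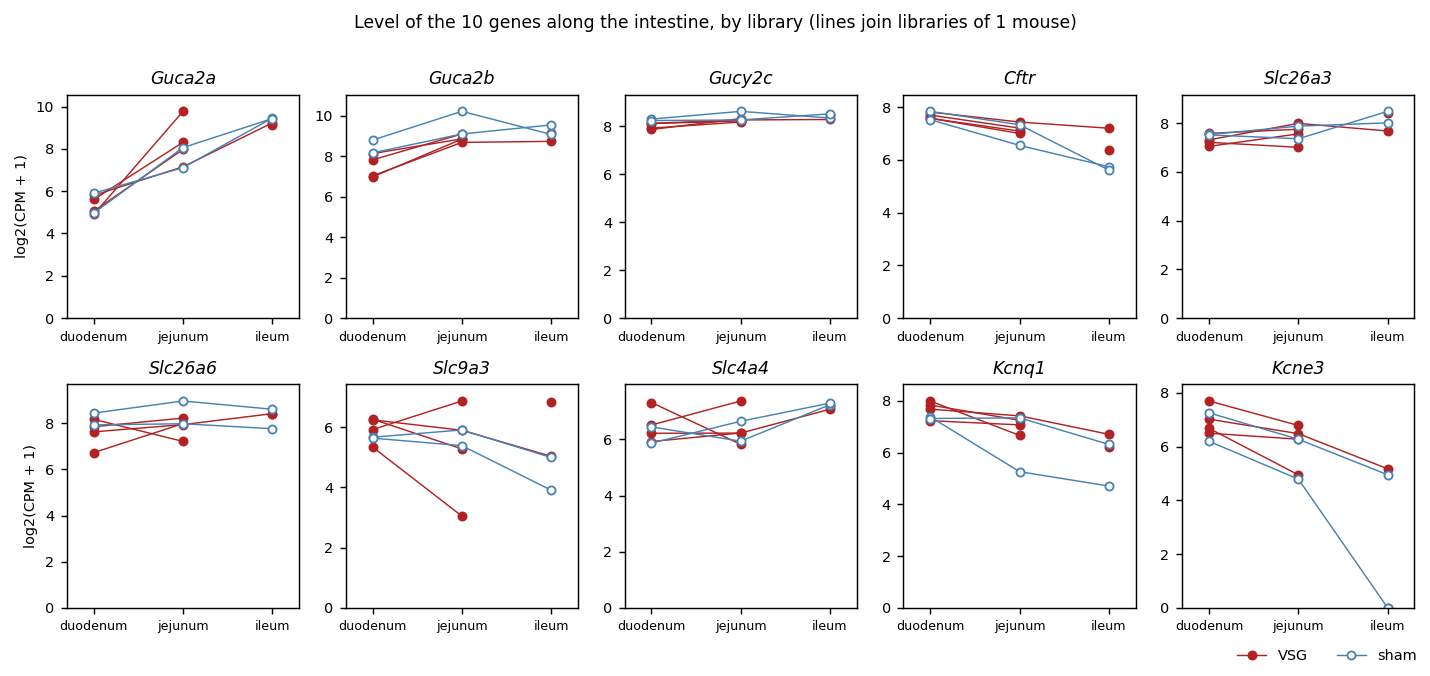
Level of the 10 genes in duodenum, jejunum and ileum, as log2(CPM + 1), 1 panel per gene. Each point is 1 library (filled, VSG; open, sham) and lines join libraries of 1 mouse; Guca2a climbs from 28.8 to 58.8 CPM in the duodenum to 557 to 700 in the ileum, Cftr, Kcnq1 and Kcne3 descend, and Kcne3 is listed at 0 in 2 ileal libraries.

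The order of the hormone genes differed along the intestine. The ratio of Guca2a to Guca2b within a library, which needs no scaling between libraries, had a duodenal median of 0.158 (0.106 to 0.424), a jejunal one of 0.475 (0.116 to 1.91) and an ileal one of 1.16 (0.929 to 1.42). Every duodenal library had less than every ileal library. The jejunum was the segment with the widest range, with the lowest ratio in sham replicate 1 and the highest in VSG replicate 1. Divided by transcript length, Guca2b ranked first of the 10 genes in the duodenum (414 CPM per kb of its principal transcript) and in the jejunum (829.1), and Guca2a ranked first in the ileum (1083 against 901 for Guca2b). The first rank was the same with the length of all exons of the gene, while ranks between the receptor and the transporters moved with the length used. Slc4a4 was lowest in the duodenum (10.1) and jejunum (9.32) by both lengths.

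**Figure D2:**
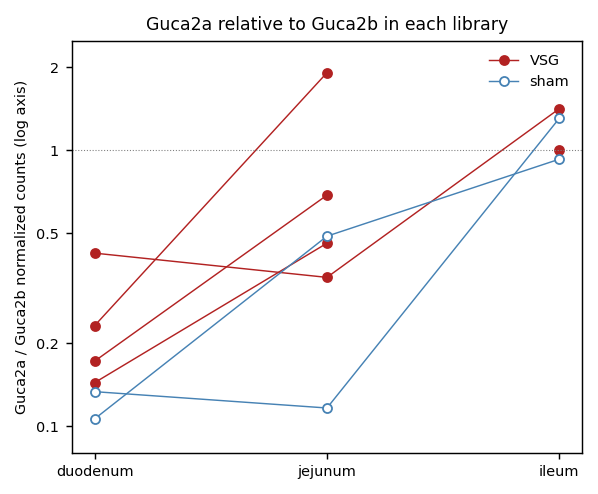
Ratio of Guca2a to Guca2b normalized counts in each of the 16 libraries, on a log axis, with lines joining libraries of 1 mouse (filled, VSG; open, sham). All duodenal ratios are at or below 0.424 and the ileal ratios lie between 0.929 and 1.42, around the dotted line at 1.

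The channels had the opposite order. Cftr, the apical chloride channel, had medians of 199 (183 to 229), 141 (92.8 to 172) and 67.8 (48.1 to 146) CPM in duodenum, jejunum and ileum. The jejunum was lower in 6 of 6 mice (median fold of duodenum over jejunum 1.42), without overlap of the ranges, and the ileum was lower than the duodenum in 3 of 3 mice (3.44-fold). Kcnq1, the pore subunit of the basolateral potassium channel, had medians of 185 (149 to 254), 142 (37.4 to 170) and 76.1 (25.1 to 104) CPM, lower in the jejunum than in the duodenum in 5 of 6 mice and lower in the ileum than in either in 3 of 3. Kcne3, its regulatory subunit, had 72.5 to 207 CPM in the duodenum and 26.7 to 110 in the jejunum, where it was lower in 6 of 6 mice. In the ileum Kcne3 had 773 normalized counts in VSG replicate 4 and 675 in sham replicate 2 and was listed at 0 in VSG replicate 5 and sham replicate 1. Since each group held 1 such library, no mean is given there. Reads of Kcnq1 may also include those of the long antisense RNA Kcnq1ot1, which lies within it on the opposite strand, since the library kit keeps strand but the sources used here do not state how strand was used in counting. Cftr and Kcne3 likewise overlap annotated antisense genes, and Slc26a3 holds a processed pseudogene.

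The exchangers and the cotransporter showed no common order. Slc26a3, the chloride-bicarbonate exchanger known from congenital chloride diarrhoea, had medians of 170 (131 to 190.0), 200.3 (127 to 252) and 299 (203 to 356) CPM, and neighbouring segments overlapped. Slc26a6, the other apical exchanger, had 237 (105 to 348), 253 (148 to 501) and 342 (217 to 391), with overlap throughout. Slc9a3, which absorbs sodium in exchange for protons, had 54.6 (39.4 to 75.9), 49.7 (7.25 to 116) and 31.3 (13.99 to 112), and its ileal level was below the jejunal and the duodenal one in 3 of 3 mice, while VSG replicate 5, which has no other segment, held the 112. Slc4a4, the sodium-bicarbonate cotransporter, had 79.8 (57.5 to 158), 73.9 (55.7 to 164) and 148 (134 to 156), and its ileal level was above both others in 3 of 3 mice, by 1.80-fold over the jejunum. Without the scaling, the ileal medians of Slc26a3 and Slc4a4 were below the duodenal ones (log2 difference -0.57 and -0.23).

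Over all genes, 2.79% of 14718 were higher in the jejunum than in the duodenum in all 6 mice and 6.29% were lower, and 3 and 2 of the 10 genes were. Between ileum and jejunum, 9.93% of genes were higher and 20.0% lower in all 3 mice, against 2 and 4 of the 10. Between ileum and duodenum the shares were 10.7% and 31.4%, against 5 and 4 of the 10. With 3 mice such an order arises in many genes, so the counts for the ileum say little about these 10 genes. The median log2 difference over all genes was -0.14 for jejunum minus duodenum and -0.42 for ileum minus duodenum. Among all genes ranked by these 2 differences, Guca2a lay at percentiles 99.9 and 99.5. Cftr lay at 23.1 and 15.8, Kcnq1 at 28.0 and 31.7, and Kcne3 at 6.91 and 10.4, so many genes fell as much as Cftr and Kcnq1.

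In the duodenum, VSG against sham asked whether surgery altered these genes in GFP+ ISCs. None of the 10 genes passed the study's thresholds by limma (p under 0.05, adjusted p under 0.2, absolute log2 fold change above 0.5, mean above 50), which 4 of 16867 genes did (0.0237%). The study applied these thresholds to DESeq2 results and reported far more genes past them in each segment. The absence of a limma call is therefore not the study's own result for a gene. An unadjusted limma p under 0.05 was reached by 1 gene of the 10, Guca2b, and by 6.27% of all genes in either direction, with 3.48% in the lower and 2.79% in the higher direction. An exact permutation test over the 15 splits of 4 against 2 libraries cannot go below a p of 0.0667, and gave no member a p under 0.05. The 4 VSG mice, in order of number, had 5908, 10569.6, 13006 and 6054 normalized counts of Guca2b, and sham mice 1 and 2 had 22834 and 13646. All VSG libraries were below both sham libraries, by a small margin between VSG replicate 3 and sham replicate 2. Group means were 8884 ± 3498 (SD, n = 4) for VSG and 18240.0 ± 6496 (SD, n = 2) for sham. The log2 fold change was -1.08 (SE 0.37, limma unadjusted p = 0.0167, adjusted p = 0.615, exact permutation p = 0.133, two-sided). The log2 fold change was -0.70 without sham replicate 1, -0.91 without VSG replicate 1, -0.92 without VSG replicate 4 and -1.45 without sham replicate 2, and each of these limma fits left an unadjusted p above 0.05 (0.0561 to 0.270).

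Gucy2c, the receptor, had 11460.1, 10953, 12910 and 13001 counts after VSG and 16237 and 14423 after sham surgery in the duodenum. These groups did not overlap either (log2 fold change -0.35, SE 0.20, limma unadjusted p = 0.115, exact permutation p = 0.0667, the smallest possible). Groups without overlap were seen in 2 of the 10 genes, both with VSG below sham, and in 14.4% of all genes (8.01% with VSG below, 6.44% above). Guca2a had 1368, 1519.7, 2238 and 2566 counts after VSG and 3043 and 1450.0 after sham surgery, so that sham replicate 2 lay among the VSG libraries (log2 fold change -0.18, SE 0.40). Slc26a6 ranged from 4993 to 13483 counts after VSG and had 17998 and 11676 after sham surgery (-0.68, SE 0.38). The other members had fold changes between -0.32 (Slc26a3) and 0.26 (Slc4a4), with overlapping groups and limma unadjusted p-values from 0.182 to 0.667. The median log2 fold change was -0.14 over the 10 genes and 0.01 over all genes tested.

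In the jejunum, no member passed the study's thresholds by limma, which 2 of 15857 genes did (0.0126%), and 1 of the 10, again Guca2b, had an unadjusted p under 0.05, against 6.04% of all genes in either direction, 2.40% in the lower and 3.63% in the higher one. No member had groups without overlap, which 12.8% of all genes had (6.21% with VSG below, 6.59% above). No exact permutation p was under 0.05, the smallest possible again being 0.0667. The VSG mice had 15268, 18742, 15771 and 13792 counts of Guca2b here, and the sham mice 55602 and 18322. The high value was that of sham replicate 1, and sham replicate 2 lay within the VSG range. The log2 fold change was -1.01 (SE 0.44, limma unadjusted p = 0.0421, adjusted p = 0.760, exact permutation p = 0.133). It was -0.21 without sham replicate 1 and -1.82 without sham replicate 2. With each library scaled to the same total it was -0.79, no longer under an unadjusted p of 0.05.

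Sham replicate 1 set the jejunal values of other members too. Gucy2c had 9645 to 10969.7 counts in the 4 VSG libraries, 10305 in sham replicate 2 and 18484 in sham replicate 1. Slc26a6 had 5070 to 10313 counts after VSG, 8497 in sham replicate 2 and 23578 in sham replicate 1. Kcnq1 lay the other way, with 3466 to 5767.5 counts after VSG, 5443 in sham replicate 2 and 1761 in sham replicate 1. In each case sham replicate 2 was within the VSG range. Sham replicate 1 also had a normalized total of 47.1 M, against 33.5 to 34.5 M in the other jejunal libraries. In CPM its Gucy2c was 392 against 288 to 318 after VSG, and its Slc26a6 501 against 148 to 299. Its Kcnq1 was 37.4 CPM against 101 to 170 after VSG. Their log2 fold changes were -0.42 (SE 0.33), -0.86 (SE 0.45) and 0.58 (SE 0.45). Without sham replicate 1 they were -0.00, -0.13 and -0.23. With sham replicate 1 as the only sham library they were -0.85, -1.60 and 1.40, and then 4 of the 10 genes passed the study's thresholds by limma, which assumes that the lone library varies like the others. Guca2a had 29220.3, 8633, 10854 and 4775 counts after VSG and 6465 and 8949.5 after sham surgery, with a log2 fold change of 0.49 (SE 0.59). It was 0.01 without VSG replicate 1. Slc9a3 had 243, 3994, 1297 and 1982 counts after VSG and 2777.5 and 1374 after sham surgery, and its log2 fold change of -0.64 (SE 0.92) became 0.15 without VSG replicate 1. That library had the highest Guca2a and the lowest Slc9a3 of the segment, and it is the one with Fabp6. The median over the 10 genes was -0.19, and 0.11 over all genes.

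In the ileum, 0 of the 10 genes and 0 of 13853 genes (0%) passed the study's thresholds by limma, and 0 of the 10 had an unadjusted p under 0.05, against 455 of all genes (3.28%, of which 2.09% higher and 1.19% lower). No exact permutation p was under 0.05, since with 2 libraries a group it cannot go below 0.333. In normalized counts, groups did not overlap for 5 of the 10 genes, 4 with VSG below sham and 1 above. The share over all genes was 28.6% (11.6% below, 17.0% above). In CPM the groups of Guca2b overlapped, with 554 in VSG replicate 5 and 536 in sham replicate 1. Those of Gucy2c overlapped too, with 353 in VSG replicate 5 and 323 in sham replicate 1. Both hormone genes had lower normalized counts in the VSG libraries. Guca2a had 13154 and 12247 counts against 17511 and 15488, a log2 fold change of -0.38 (SE 0.30). Guca2b had 9287.5 and 12176 against 13405 and 16670.1, a log2 fold change of -0.49 (SE 0.33). Gucy2c (6818 and 7764.5 against 8085 and 8217) and Slc4a4 (2945 and 3191 against 3748 and 3508) were lower by less, -0.16 (SE 0.34) and -0.24 (SE 0.42). Cftr was the 1 gene with higher values in both VSG libraries, 3218 and 1827.5 counts against 1313 and 1081.5, with a log2 fold change of 1.02 (SE 0.59, limma unadjusted p = 0.135, adjusted p = 0.736, exact permutation p = 0.333). Leaving out 1 library gave 0.62 (without VSG replicate 4, limma unadjusted p = 0.176) to 1.43 (without VSG replicate 5, limma unadjusted p = 0.0465), and each of these fits rests on a lone VSG library assumed to vary like the others. Slc9a3 and Kcnq1 had log2 fold changes of 1.41 (SE 0.97) and 0.86 (SE 0.73), and their groups overlapped.

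**Figure D3:**
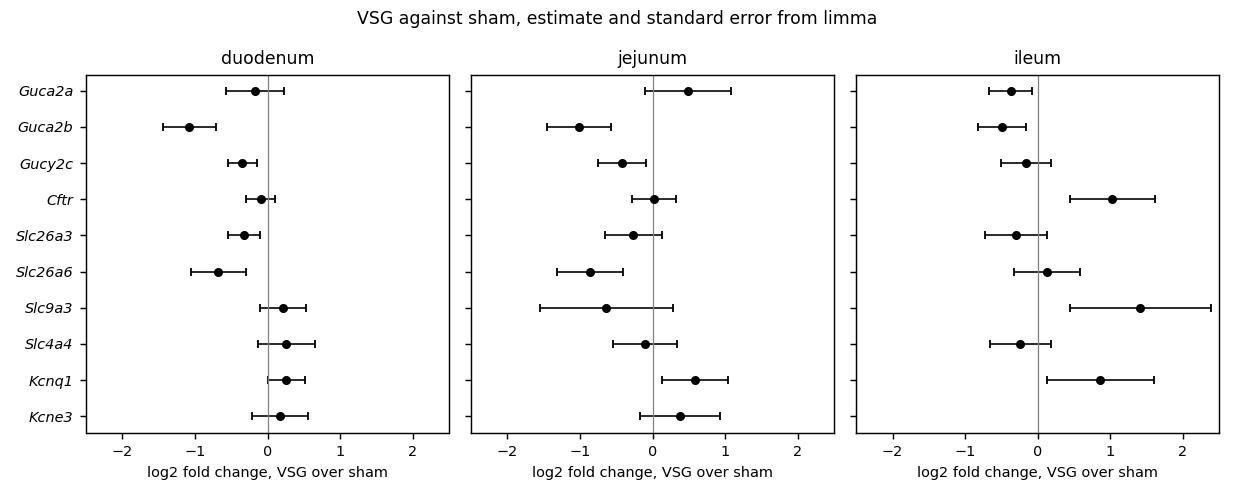
Log2 fold change of VSG over sham for the 10 genes in each segment, points with standard errors from limma; Kcne3 in the ileum is left out because 2 of its 4 libraries are listed at 0. Guca2b is lowest in the duodenum (-1.08) and jejunum (-1.01). The bars show the standard error and are not confidence intervals.

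Guca2b had nearly the same difference in both upper segments, which come from the same mice and so are not independent. The test of the difference itself, on each mouse's jejunal minus duodenal log2 value, gave 0.06 (SE 0.41, limma unadjusted p = 0.886). The largest difference between segments was that of Slc9a3, -0.85 (SE 0.86, limma unadjusted p = 0.349, adjusted p = 0.965). No member had an unadjusted limma p or an exact permutation p under 0.05 for this difference, and 4.10% of 14718 genes had such a limma p (0 at an adjusted p under 0.2).

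Markers of enterocytes had the library order of Guca2b in the duodenum but not in the jejunum or ileum. Over all genes tested, 50.7%, 55.0% and 57.0% had higher estimates after VSG in duodenum, jejunum and ileum. In the duodenum 16 of 16 enterocyte markers had lower estimates after VSG, 8 of them with an unadjusted limma p under 0.05, and their sum was 8588, 16809, 18756 and 12281 CPM for VSG mice 1 to 4, against 27729.6 and 20152 for sham mice 1 and 2. The libraries had the same order for Guca2b, from VSG replicate 1 as the lowest to sham replicate 1 as the highest. Duodenal Gucy2c did not have this order, with its lowest value in VSG replicate 2. In the jejunum 16 of 16 were lower and 5 had such a p, with sums of 18880.3, 33602, 19453.5 and 23064 CPM after VSG and 56953 and 29313 after sham surgery. In the ileum 9 of 16 had higher and 7 lower estimates, with none under an unadjusted p of 0.05. The highest ileal sum, 38805 CPM, was that of VSG replicate 5, and the highest ileal Guca2b, 741 CPM, that of sham replicate 2. Markers particular to ileal enterocytes had lower estimates for 5 of 5 genes there, 2 of them with an unadjusted limma p under 0.05, and summed to 4974 and 2792 CPM after VSG against 10825 and 8884 after sham surgery. Stem cell markers had higher estimates after VSG for 8 of 10 genes in the duodenum and 10 of 10 in the jejunum. Of these, 1 and 0 had an unadjusted limma p under 0.05, and the summed markers overlapped between groups in both segments. In the ileum the sums were 636 and 438 CPM after VSG against 217 and 340 after sham surgery, with up to 5 of the 10 listed at 0 in a library. In duodenum and jejunum 11 of 11 tuft cell markers had higher estimates after VSG. Guca2a is itself in the list of goblet cell markers and was left out of it here. The other 9 all had higher estimates in duodenum and jejunum, 2 and 6 of them with an unadjusted limma p under 0.05, and 8 of 9 had in the ileum, where their sums of 6682 to 8971 CPM after VSG lay above the 3259 and 6177 CPM after sham surgery. The part of cell composition in the values of Guca2b and the other members was not tested.

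**Figure D4:**
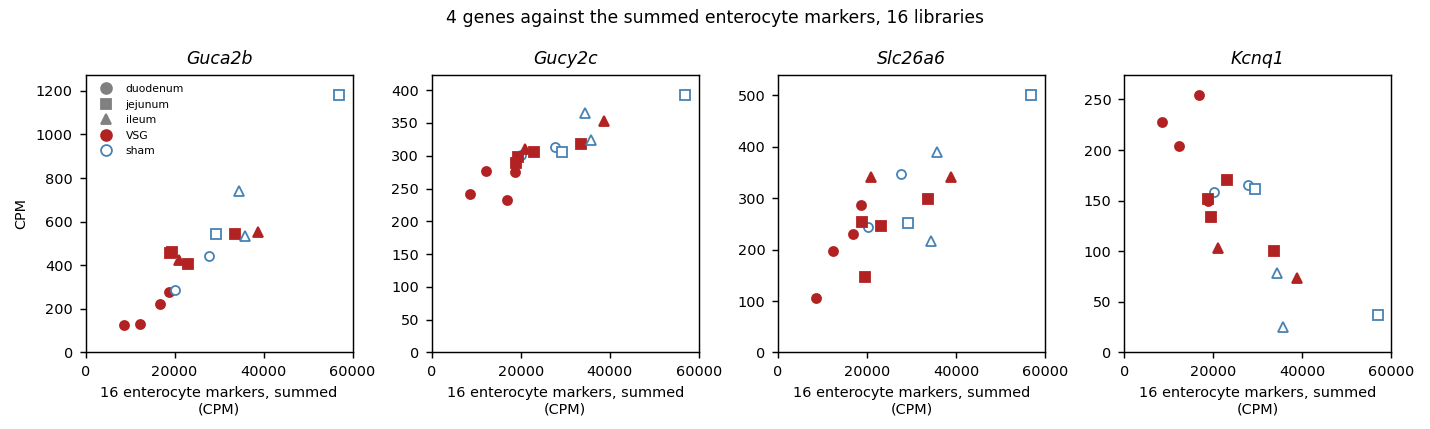
Guca2b, Gucy2c, Slc26a6 and Kcnq1, in CPM, against the sum of 16 enterocyte markers on the horizontal axis, for all 16 libraries (circles, duodenum; squares, jejunum; triangles, ileum; filled, VSG; open, sham). The jejunal library of sham replicate 1 lies at the far right with 1180 CPM of Guca2b and the lowest jejunal Kcnq1, 37.4 CPM.

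The wider pathway was followed with 7 lists that hold 103 other genes, of which 76, 75 and 70 were tested in duodenum, jejunum and ileum. None passed the study's thresholds by limma. An unadjusted limma p under 0.05 was reached by 10 genes in the duodenum (1 higher, 9 lower), 10 in the jejunum (5 higher, 5 lower) and 3 in the ileum (2 higher, 1 lower), beside background shares over all genes of 6.27%, 6.04% and 3.28%. Over all genes tested, 50.7%, 55.0% and 57.0% had higher estimates in duodenum, jejunum and ileum. Nothing particular to the lists is read from these counts or from the counts of directions that follow.

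Of 14 tested genes of cyclic GMP signalling, 10 had lower and 4 higher estimates in the duodenum, where 50.7% of all genes had higher ones, and 3 had an unadjusted limma p under 0.05 (1 higher, 2 lower). Pdzk1, a scaffold protein of the apical membrane, had 758, 1509, 2520.2 and 1166 counts after VSG and 10125 and 3868 after sham surgery (log2 fold change -2.21, SE 0.51, limma unadjusted p = 0.00184, adjusted p = 0.434). Slc9a3r1, the scaffold that holds Slc9a3 and Cftr at the membrane, averaged 14682 ± 3992 (SD, n = 4) counts in VSG libraries against 24857 ± 3771 (SD, n = 2) in sham libraries (-0.80, SE 0.30). Both had groups that did not overlap. Pde5a, which breaks down cyclic GMP, was the 1 gene of the lists with a higher estimate at an unadjusted p under 0.05 in the duodenum (1.05, SE 0.38). Vasp, a substrate of the cyclic GMP dependent kinases, had 12221 and 11605 counts on average in VSG and sham libraries of the duodenum (0.06, SE 0.23), and 6584 and 3014 in the ileum (1.16, SE 0.43, limma unadjusted p = 0.0385).

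The second messenger cyclic AMP opens Cftr as well. Of 12, 14 and 13 tested genes of that list, 5, 8 and 7 had higher estimates in the 3 segments. Vipr1, the receptor for vasoactive intestinal peptide, had 6931, 7709.6, 3316 and 13633 counts after VSG and 37000.2 and 16838 after sham surgery in the jejunum, without overlap (log2 fold change -1.83, SE 0.53, limma unadjusted p = 0.00630, adjusted p = 0.760). The adenylate cyclase gene Adcy6 had log2 fold changes of -0.04 (SE 0.20) and 0.19 (SE 0.32) in duodenum and jejunum. In the ileum the most abundant genes were Vipr1 (-1.09, SE 0.78) and Prkar2a, a regulatory subunit of protein kinase A (-1.19, SE 0.56).

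Among other chloride and bicarbonate transporters, lower estimates were found for 10 of 15 tested in duodenal, 8 of 13 in jejunal and 9 of 13 in ileal libraries. Slc4a7, a sodium-bicarbonate cotransporter, had 1878, 3998, 3492 and 3529 counts after VSG and 10505 and 7263 after sham surgery in the duodenum (log2 fold change -1.49, SE 0.34, limma unadjusted p = 0.00145, adjusted p = 0.415). In the jejunum it had 1130.5, 2205, 1113.5 and 2073 against 7168 and 2615 (-1.48, SE 0.50). Ano6, an ion channel and lipid scramblase, had lower estimates in both segments as well (-0.78, SE 0.24, and -1.12, SE 0.43). Groups of these genes did not overlap in either segment, with a narrow gap to sham replicate 2 in the jejunum. Slc4a5 had a lower estimate in the duodenum (-0.61, SE 0.26). Slc12a2, the basolateral cotransporter that loads the cell with chloride, had 34041.5 and 30309 counts on average in the duodenum (0.13, SE 0.27). Clca1, a secreted goblet cell protein, had a log2 fold change of 1.91 (SE 0.69, limma unadjusted p = 0.0198) in the jejunum, with overlapping groups, and -0.35 (SE 0.49) in the ileum. Clca4a was at 0 to 13.3 counts in the duodenal VSG libraries and at 61.9 and 209 in the sham libraries, and in the ileum it had 172 and 6.17 against 664 and 3431. It has near-identical relatives between which reads may be split, and its more abundant relative Clca4b had -0.29 (SE 0.45), -0.87 (SE 0.54) and -0.93 (SE 0.52) in the 3 segments.

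Active carbonic anhydrases supply bicarbonate, and the activity of the listed members was not measured. Car4, bound to the brush border, had -0.64 (SE 0.31), -0.39 (SE 0.45) and -1.48 (SE 0.62). Car9 had -0.46 (SE 0.21) in the duodenum and 0.40 (SE 0.44) in the jejunum, and Car13 -0.04 (SE 0.55) in the ileum. In the jejunum 3 members of this list had higher estimates at an unadjusted p under 0.05. Car8 averaged 1668 ± 777 (SD, n = 4) in VSG libraries against 536 ± 416 (SD, n = 2) in sham libraries. Car12 had 505 to 1139.9 against 452.5 in sham replicate 2 and was listed at 0 in sham replicate 1. Car15 had 121 to 159.8 counts in the VSG libraries and was listed at 0 in both sham libraries.

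Sodium uptake and the sodium pump had 10 of 14 tested genes with lower estimates in each segment. The abundant pump subunit Atp1b1 had log2 fold changes of -0.42 (SE 0.26), -0.50 (SE 0.46) and 0.16 (SE 0.25) in duodenum, jejunum and ileum. The kinase Sgk1, which raises sodium transport, had 4095 ± 954 (SD, n = 4) and 6451 ± 1803 (SD, n = 2) counts in the duodenum (-0.65, SE 0.28). Its relative Sgk2 was listed at 0 in 3 duodenal VSG libraries and at 4.996 counts in the other, against 189.9 and 247 in the sham libraries. Chp2, a cofactor of the sodium-proton exchangers, had 3926 to 8387 counts in the jejunum after VSG and 21721 and 9445 after sham surgery (-1.19, SE 0.43).

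Other potassium channels had higher estimates for 5 of 6, 6 of 8 and 6 of 7 tested genes. Kcnn4, the calcium-activated channel, had 0.39 (SE 0.31), 1.84 (SE 0.92) and 6.09 (SE 2.94), the last against sham libraries of which 1 was listed at 0. Kcnk5 had 0.21 (SE 0.45), -0.18 (SE 0.45) and 0.75 (SE 0.62), and Kcnk1 had 1.40 (SE 0.55, limma unadjusted p = 0.0297) in the jejunum. Kcnk6 had 1097 and 225 counts in the ileal VSG libraries and was listed at 0 in both sham libraries. Of the aquaporins, the basolateral water and glycerol channel Aqp3 had 37.7, 316, 15.2 and 39.7 counts after VSG and 910.3 and 504 after sham surgery in the duodenum (-3.67, SE 1.31, limma unadjusted p = 0.0203). In the jejunum it had 35.1 to 481 against 771 and 1215 (-3.16, SE 1.24). The more abundant Aqp1 had -0.23 (SE 0.21), -0.36 (SE 0.32) and 0.23 (SE 0.47), and Aqp11 had -0.43 (SE 0.35), -0.72 (SE 0.58) and 0.41 (SE 0.75).

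**Figure D5:**
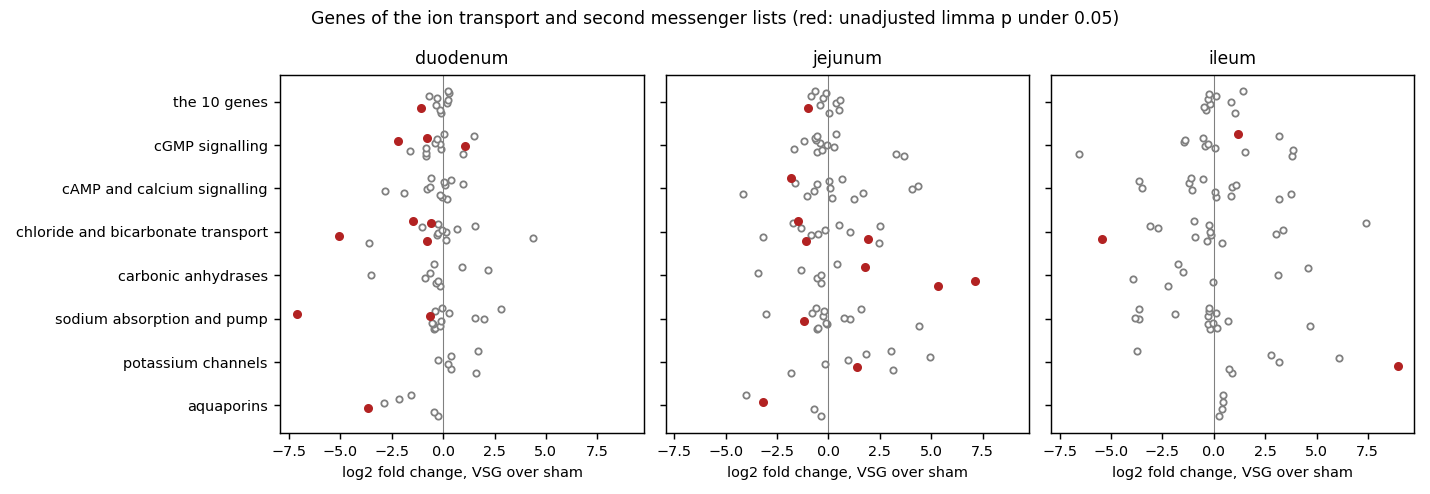
Log2 fold change of VSG over sham for each tested gene of the 10 genes and of the 7 lists, by segment, on a shared axis; red points have an unadjusted limma p under 0.05. Red points to the left outnumber those to the right in the duodenum (9 list genes and Guca2b against 1 list gene), and the jejunum has 5 list genes on each side and Guca2b on the left.

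Which other genes varied like each member was described by Pearson's r of log2 values centred on each segment's mean, over 16 libraries and 10712 genes. The libraries share mice and depth, so these values are a description. Guca2a was most like Nr1h4, which encodes the bile acid receptor FXR (r = 0.80), Pgap2 (0.80) and Krt8 (0.76), and without the 3 libraries of sham replicate 1 these were 0.81, 0.81 and 0.81. Guca2b was most like Uap1l1 (0.95) and Cgref1 (0.94), which were 0.89 and 0.86 without that mouse. Gucy2c was most like the fatty acid oxidation gene Hadh (0.96), Gpd1 (0.95) and Dpyd (0.93), and 0.85, 0.86 and 0.64 without it. Guca2b and Gucy2c had r = 0.86, or 0.56 without that mouse, while Guca2a had -0.02 with Guca2b and -0.13 with Gucy2c. The largest deviation of Guca2a from its segment mean was 1.61 on the log2 scale, in the jejunal library of VSG replicate 1. That is the library with high Fabp6, and r was not computed without it, so the values for Guca2a may rest on it.

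Cftr was most like the cell cycle kinase gene Wee1 (0.95), Mrpl11 (0.92) and Rpia (0.91). Slc26a3 was most like Parp4, Mtmr14 and Pdcd6 (0.87, 0.87 and 0.86), and Slc26a6 like Plac8, Anks4b and Slc37a4 (0.96, 0.93 and 0.93). Slc9a3 was most like Acy1, Slc36a1 and Ifnlr1 (0.91, 0.89 and 0.88), and its largest deviation was also in the jejunal library of VSG replicate 1 (-2.58). Slc4a4 had the lowest values, with Dcbld1, Med21 and Llgl2 (0.73 each). Kcnq1 was most like the Paneth cell defensin gene Defa21 (0.94), which has near-identical relatives, and Mthfd1 and Sec61a2 (both 0.93), which were 0.79, 0.72 and 0.69 without sham replicate 1. For Kcne3 the values (0.99 with Dnaaf2, Utp14a and Tagap1) rest on the ileal libraries listed at 0.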

How the data were processed

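RNA of sorted GFP+ cells was sequenced in 16 libraries of 7 mice (poly(A) RNA, single-end). For the deposited signal values the authors used STAR v2.5.3a on mm10, then Salmon v0.6.0 for transcripts, and normalized the counts of each segment with DESeq2 after leaving out libraries with low mapping. The deposited values used were normalized counts only, and the fold changes and p-values given here were computed from them. Only 28.1% to 40.4% of the non-zero values were whole reads within 0.02, so no count model was run. What 1 read was worth (0.586 to 2.07) was taken as the most frequent low non-zero value of each library, and a value of 0 allows up to 3 reads, counting error only.

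Each segment was tested with limma 3.58.1 (R 4.3.3) with a variance trend on log2(normalized count + 1), keeping genes whose mean exceeded 10, with Benjamini-Hochberg adjustment over all of them, and fold changes are on that scale. Single genes had two-sided exact permutation tests over 15 splits (4 against 2) or 6 (2 against 2). The difference between segments was tested on jejunal minus duodenal values of each mouse. Each library is 1 segment of 1 mouse. Groups came from the sample labels. Of the 48440 identifiers, 48058 were matched to GENCODE M21. The members, the 7 pathway lists and the 9 marker lists were chosen with earlier results of these data known. Named genes are all members, in each segment the 2 most abundant genes of each list and those with an unadjusted p under 0.05, the 3 genes most like each member (mean above 50 in every segment), and, of the marker lists, Lgr5 and abundant or defining genes. Some genes that this rule names are not reported here. The alternatives used quantile normalization, pseudocounts of 0.5 and 10, other filters, equal totals, limma without trend, a replicate block and leaving out libraries. Limma was tested on simulated data. Mice with the same number in VSG and sham groups are different mice, and the correlation of their deviations was between -0.05 and 0.05, so the number was not taken to pair them. Figures used Python 3.11.15, numpy 2.4.6, pandas 2.3.3 and matplotlib 3.10.9.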

Additional observations from a re-analysis of the deposited data

How the results depend on the processing

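With 2 sham libraries a segment, single libraries set much of the result, and ileal libraries without counts for a gene may reflect lost transcripts. The counts of members with an unadjusted limma p under 0.05 were 1, 1 and 0 in duodenum, jejunum and ileum; leaving out 1 library moved them between 0 and 2, 0 and 4, and 0 and 1, and those past the study's thresholds between 0 and 4 in the jejunum. List genes with such a p (10, 10 and 3) ranged from 6 to 12, 3 to 21 and 7 to 12. Limma without trend gave 0 members in duodenum and jejunum and 5 and 3 list genes, and a pseudocount of 10 gave 6 list genes in the ileum. In the jejunum, quantile normalization and equal totals gave 0 members, and equal totals turned Slc4a4 (0.12). The replicate block gave 0 members in both segments and 4 and 2 list genes, with Guca2b at -1.16 and -0.92; it turned Slc9a3 (-0.10) and Slc4a4 (-0.011) in the duodenum and Cftr (-0.065) and Slc4a4 (0.28) in the jejunum. The ileal groups share no number, so no block could be fitted there. Leaving out both VSG replicate 1 and sham replicate 1 of the jejunum, an alternative chosen after seeing the data, gave 0 members and 6 list genes and turned Guca2a (-0.23), Gucy2c (0.028), Cftr (-0.067), Slc26a3 (0.24), Slc9a3 (0.66), Kcnq1 (-0.27) and Kcne3 (-0.36). Quantile normalization turned ileal Kcne3 (-0.049). The cause of these changes was not tested.

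Leaving out 1 library at a time also turned the sign of fold changes that were not called. The ranges in the duodenum were -0.71 to 0.36 (Guca2a), -0.20 to 0.0084 (Cftr), -0.087 to 0.60 (Slc4a4) and -0.31 to 0.65 (Kcne3). In the jejunum they were -0.14 to 0.17 (Cftr), -0.77 to 0.23 (Slc26a3), -1.19 to 0.15 (Slc9a3), -0.42 to 0.088 (Slc4a4), -0.23 to 1.40 (Kcnq1) and -0.14 to 0.90 (Kcne3). In the ileum they were -0.68 to 0.071 (Slc26a3), -0.38 to 0.62 (Slc26a6) and -4.70 to 4.90 (Kcne3). The jejunal minus duodenal difference of Guca2b ranged from -0.37 to 0.49. In the unscaled deposited values, the median log2 differences of Gucy2c turned to -0.29 (jejunum minus duodenum) and -0.93 (ileum minus duodenum), and those of Slc26a3 and Slc4a4 to -0.57 and -0.23 (ileum minus duodenum).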
